A study of Mus musculus with 16 samples.

Results

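C2C12 is a mouse myoblast line that divides in growth medium (GM) and leaves the cell cycle, expresses muscle genes and fuses into myotubes in differentiation medium (DM). MUNC is a noncoding RNA transcribed from upstream of Myod1, the gene of the myogenic factor MyoD. The comparison described here is differentiation of WT-labelled C2C12 cells that carry a stably transfected vector for spliced MUNC, and its members are the 4 libraries carrying that label among 16 in the series: 2 from proliferating cells in GM and 2 from differentiating cells in DM. Their change from GM to DM was also set against that of 4 WT-labelled libraries with an empty vector (EV) and 4 MYOD-/- labelled libraries with the MUNC vector, each again 2 in GM and 2 in DM. All groups were C2C12 cells, of skeletal muscle origin and with a stated C57BL/6 strain background and a stated age of postnatal day 21, all carried a transfected vector, and the vector's promoter is not given. CRISPR-Cas9 and a screen of single cells gave the MYOD-/- cells, with no number of clones given in the sources used. The differentiating cells are called DM3 in the design text. Poly(A) RNA was sequenced in pairs of reads.

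Myogenic differentiation runs through a small family of transcription factors. Myf5 and MyoD mark the committed myoblast, and myogenin, encoded by Myog, is switched on as the cell stops dividing. With Mef2 factors it turns on contractile, calcium-handling and synaptic genes, while Id proteins hold the same factors inactive in dividing cells. Cell cycle exit is followed by fusion and sarcomere assembly.

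The labels were first checked against the transcripts. Myod1 was at 3.72 and 4.06 CPM (read counts scaled to library size with TMM factors) in the GM libraries and at 3.18 and 1.70 CPM in the DM libraries of WT-labelled MUNC cells. It was at 0.0136 to 0.291 CPM in the 4 WT-labelled EV libraries, at 11.9 to 33.1 CPM in the 4 MYOD-/- labelled EV libraries and at 4.18 to 16 CPM in the 4 MYOD-/- labelled MUNC libraries. The levels therefore go against the genotype labels, and "WT-labelled" and "MYOD-/- labelled" are used throughout. MUNC (Gm45923) was at 1821 and 2225 CPM in GM and at 2012 and 2669.7 CPM in DM, against 1.15 to 11 CPM in the WT-labelled EV libraries. In the 4 MYOD-/- labelled MUNC libraries it was at 43 to 132 CPM, so the 2 lines with the MUNC vector held it at very different levels. It did not pass the test between DM and GM (log2 fold change 0.21 ± 1.09, SE), and vector and endogenous transcripts were not counted apart. Of the defining skeletal muscle markers, Myf5 was at 57.6 to 97.0 CPM in the 4 libraries, and Pax7 had at most 0.118 CPM.

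The 4 libraries held 63.4 M and 59.6 M estimated counts (GM) and 48.2 M and 108 M (DM), in a series spanning 35.8 M to 108 M. The log2 CPM of replicates correlated at 0.991 in GM and 0.996 in DM. Zrsr1 took 0.0135% and 0.0344% of the counts of replicate 1 in GM and DM, but 5.51% and 5.54% in replicate 2, and over the series it took at most 0.0344% in the 8 replicate 1 libraries and 1.49% to 13% in the 8 replicate 2 libraries. Whether replicates came from separate cultures is not labelled. Each p-value therefore reflects only how far replicates spread within the 8 groups of all 16 libraries, fitted together, and that spread may be technical. Some GM levels also differed widely between replicates: H19 was at 758 CPM in replicate 1 and 37.8 CPM in replicate 2, Igfbp5 at 64.1 and 3.95 CPM, and Id1 at 29.9 and 133 CPM.

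Of 14972 genes tested, 5956 (39.8%) changed between GM and DM in WT-labelled MUNC cells. The changes are log2 fold changes of DM over GM with the SE of edgeR's quasi-likelihood model, and a gene was called at a Benjamini-Hochberg adjusted p under 0.05. There were 3075 genes higher in DM (20.5%) and 2881 lower (19.2%). Large rises outnumbered large falls: 724 genes rose and 266 fell more than 4-fold, and 191 rose and 39 fell more than 16-fold. Leaving out 1 of the 4 libraries left 4015 to 4426 calls. On log2(TPM + 1) with limma, 4195 genes were higher and 1921 lower, so that 68.6% of calls were rises, against 51.6% in the count model. The median change over all genes tested was 0.06. In such bulk RNA, fewer cells of a type and less RNA per cell cannot be told apart.

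**Figure D1:**
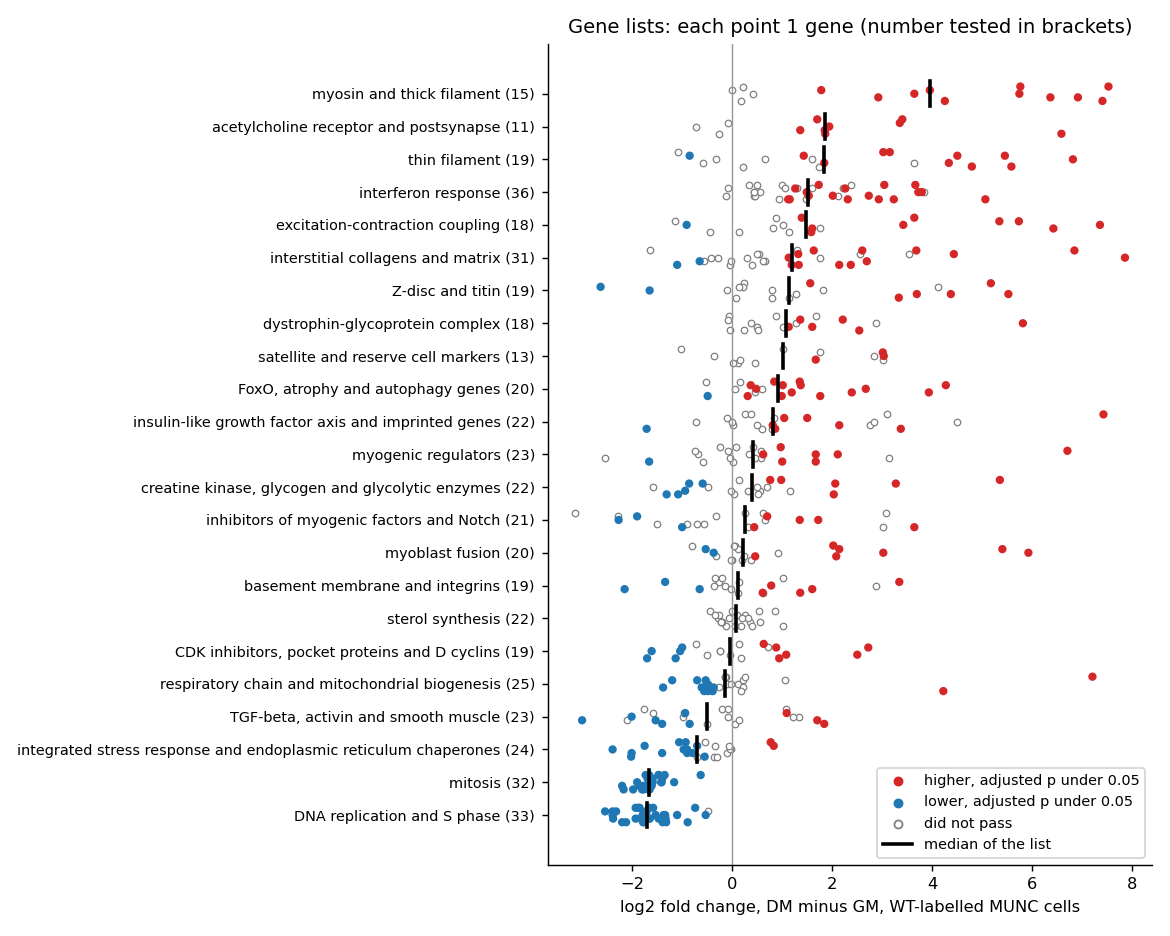
Log2 fold change (DM minus GM) of every tested gene of 23 lists in WT-labelled MUNC cells, 1 point per gene, filled where the adjusted p was under 0.05 and with the median of each list as a black bar. The lists run from the S phase list (median -1.71) at the bottom to the thick filament list (median 3.95) at the top.

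Myog rose in DM. It was at 0.111 and 0.0361 CPM in GM and at 7.91 and 8.14 CPM in DM, so that both DM libraries lay far above both GM libraries and close to each other. The log2 fold change was 6.70 ± 0.75 (adjusted p 6.91e-05). Myod1 itself did not pass (-0.69 ± 0.56), nor did Myf5, at 84.7 and 97.0 CPM in GM and 57.6 and 63.1 CPM in DM (-0.59 ± 0.24). For both of these factors the DM libraries were the lower ones. In deposited TPM, which is scaled by transcript length, Myog in DM (12.3 and 11.5) stood above Myod1 (3.94 and 1.92) and below Myf5 (62.6 and 62.5). Myf6, the factor of mature fibres, stayed at 0.0722 to 0.196 CPM in every library. Mef2c, a partner of the myogenic factors, was too low to be tested, at no more than 0.157 CPM.

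Over the list of myogenic regulators, 7 of 23 tested genes were higher in DM and 1 was lower, with a median change of 0.42. The share called, 34.8%, was below the 39.8% of all genes called, while 20.5% of all genes were higher and 19.2% lower. The homeodomain factor Six5 was at 4.77 and 5.74 CPM in GM and 10.8 and 10.3 CPM in DM (1.00 ± 0.24), and was no longer called without GM replicate 1 (adjusted p 0.0572). Klhl41, a Kelch protein needed to stabilise sarcomere proteins and chosen here after its values were seen, rose by 2.11 ± 0.45. Tead4, a factor of the Hippo pathway, was the single gene of the list that fell (10.4 and 14.5 CPM in GM, 3.20 and 4.63 CPM in DM, -1.66 ± 0.44), a call lost without DM replicate 1 (adjusted p 0.0871) or GM replicate 2 (0.0634). The number of genes called higher was 4 without DM replicate 1, 4 without DM replicate 2 and 3 without GM replicate 2.

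The promoters of 3 genes with large rises are shown because myogenic factors bind the E-box, CANNTG, a pattern that is the same on both strands. They cover 250 bases before to 50 bases after the RefSeq start on GRCm38.p6, printed 5′ to 3′ on the gene's strand with E-boxes in capitals: Myog at chr1:134289754-134290053 (plus strand), Myh3 at chr11:67078050-67078349 (plus strand) and Chrng at chr1:87205561-87205860 (plus strand).
Myog: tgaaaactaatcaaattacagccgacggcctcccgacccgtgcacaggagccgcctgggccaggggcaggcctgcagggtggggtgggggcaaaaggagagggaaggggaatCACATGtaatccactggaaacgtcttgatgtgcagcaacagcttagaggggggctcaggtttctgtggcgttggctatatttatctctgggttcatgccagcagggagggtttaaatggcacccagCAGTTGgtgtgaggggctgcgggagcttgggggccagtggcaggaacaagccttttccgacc
Myh3: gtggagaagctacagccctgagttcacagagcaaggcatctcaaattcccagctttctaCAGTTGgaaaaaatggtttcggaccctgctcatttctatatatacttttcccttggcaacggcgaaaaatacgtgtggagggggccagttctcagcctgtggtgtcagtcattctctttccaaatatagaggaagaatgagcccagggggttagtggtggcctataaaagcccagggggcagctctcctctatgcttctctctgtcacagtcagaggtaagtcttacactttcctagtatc
Chrng: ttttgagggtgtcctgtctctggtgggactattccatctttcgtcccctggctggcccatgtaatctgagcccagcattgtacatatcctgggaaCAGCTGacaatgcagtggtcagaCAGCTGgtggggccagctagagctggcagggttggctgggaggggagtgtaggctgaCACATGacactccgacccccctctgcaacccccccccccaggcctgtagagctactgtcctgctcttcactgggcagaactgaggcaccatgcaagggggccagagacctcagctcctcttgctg
These windows held 2, 1 and 3 E-boxes. Of all 27025 RefSeq promoters of this length, 72.1% held at least 1 and 39.6% at least 2, and of the 11722 promoters of genes tested 64.3% and 29.7%. Among called rises with a promoter the share with at least 1 was 66.8% (1620 of 2426), among called falls 60.6% (1404 of 2318), and among the rises of the contractile, calcium-handling and synaptic lists 79.3% (23 of 29). A match is a description of letters, not a bound site.

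**Figure D2:**
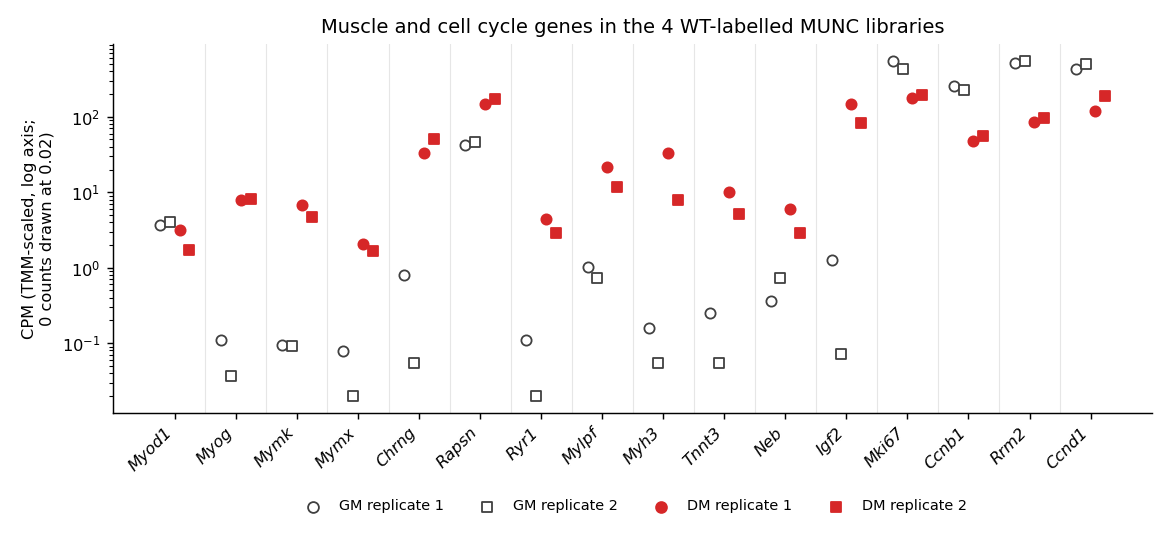
CPM (log axis) of 16 muscle and cell cycle genes in each of the 4 WT-labelled MUNC libraries, GM as open and DM as filled symbols, circles for replicate 1 and squares for replicate 2. Myog to Igf2 lie higher in both DM libraries than in both GM libraries, the 4 cell cycle genes on the right lie lower, and Myod1 lies slightly lower in both DM libraries but did not pass the test. Of all genes tested 72.7% did not overlap between media.

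The thick filament, built from myosin and its binding proteins, had the highest list median in the count model. Of 15 tested genes 11 were higher in DM, against 20.5% of all genes, and none lower, with a median of 3.95, or 3.64 with the genes at 0 counts in GM set to the floor of 3 counts. On log2(TPM + 1) with limma, a scale that understates the change of low genes, 8 were higher and the median was 0.47, below that of the acetylcholine receptor list (1.69). The medians of the thin filament, Z-disc and excitation-contraction lists were 0.42, 0.20 and 0.72 on that scale. Embryonic myosin heavy chain Myh3 was at 0.158 and 0.0542 CPM in GM and at 33.2 and 7.90 CPM in DM. Both DM libraries were higher, and replicate 1 was the higher one in each medium. The change was 7.52 ± 0.74 (adjusted p 3.53e-05). The fast regulatory light chain Mylpf went from 1.03 and 0.722 CPM to 21.8 and 11.8 CPM (4.25 ± 0.35). Its groups did not overlap, as was so for 72.7% of all genes tested. The light chain Myl1 rose by 6.91 ± 1.37 and the myosin-binding protein Mybph by 6.36 ± 1.07. M-band proteins, which tie thick filaments together, rose too: Myom2 went from 3.44 and 1.21 CPM to 17.2 and 41.0 CPM (3.64 ± 0.80), and Myom1 by 2.92 ± 0.33. The adult heavy chains stayed near 0: Myh4 reached at most 0.0785 CPM, Myh7 at most 0.0982 CPM, and Myh2 had 0 counts in all 4 libraries. The perinatal chain Myh8 was also too low to be tested (at most 0.0393 CPM).

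Among thin filament genes the fast troponins T and C and nebulin rose, skeletal actin did not pass and the tropomyosin gene Tpm3 fell. Of 19 tested genes 10 were higher and 1 lower (median 1.84), and without DM replicate 1 the number higher was 6. With all 4 libraries the share called was 57.9%, against 39.8% of all genes (20.5% higher and 19.2% lower). Fast troponin T (Tnnt3) was at 0.253 and 0.0542 CPM in GM and 10.2 and 5.15 CPM in DM (5.58 ± 1.15), and fast troponin C (Tnnc2) at 0.507 and 0.289 CPM and then 5.40 and 1.80 CPM (3.15 ± 0.58). In both genes every DM library was above every GM library, as was so in 1 direction or the other for 72.7% of all genes tested. Nebulin (Neb), the thin filament ruler, rose by 3.02 ± 0.45, from 0.364 and 0.740 CPM to 6.07 and 2.91 CPM. Skeletal actin Acta1 overlapped between the media, at 1.39 and 11.6 CPM in GM and 33.9 and 9.42 CPM in DM (1.74 ± 0.95, adjusted p 0.169). Cardiac actin Actc1 went from 0.0317 and 0.235 CPM to 4.69 and 0.718 CPM, a call (4.33 ± 1.16) lost without DM replicate 1 (2.45, adjusted p 0.126) or GM replicate 1 (adjusted p 0.0871). Tropomyosin Tpm3 was the 1 member that fell, from 629.8 and 625 CPM to 340.4 and 354 CPM (-0.85 ± 0.11, adjusted p 0.00013).

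The Z-disc anchors thin filaments and titin. Of 19 tested genes 6 were higher and 2 lower (42.1% called, against 39.8% of all genes, with a median of 1.13, or 0.80 with genes at 0 set to the floor), and 3 were higher without GM replicate 2. On log2(TPM + 1) with limma 3 were higher and 1 lower. Fast alpha-actinin Actn3 went from 3.44 and 1.86 CPM to 32.5 and 36.1 CPM (3.69 ± 0.79), and the actin-bundling protein Synpo2 from 9.96 and 10.4 CPM to 30.8 and 29.3 CPM (1.56 ± 0.36). The DM values of both genes were close to each other and well above GM. Titin (Ttn) was at 0.871 and 0.578 CPM and then 17.9 and 12.3 CPM (4.37 ± 1.04), which was no longer called without GM replicate 2 (adjusted p 0.054). The mechanically induced repeat protein Ankrd1 fell from 421 and 669 CPM to 141 and 208 CPM (-1.65 ± 0.31), and Xirp2, an actin-binding protein of the muscle attachment, fell by 2.63 ± 0.56 from levels under 1 CPM.

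Excitation-contraction coupling joins the membrane signal to calcium release from the sarcoplasmic reticulum. Here 9 of 18 tested genes were higher and 1 lower (median 1.48), with 5 higher without GM replicate 2. With all 4 libraries 55.6% of the list was called, against 39.8% of all genes (20.5% higher and 19.2% lower). The release channel Ryr1 was at 0.111 and 0.0181 CPM in GM and 4.44 and 2.90 CPM in DM. Both DM libraries stood well above GM (5.73 ± 0.43, adjusted p 1.48e-05). The fast calcium pump Atp2a1 went from 0.285 and 0.0542 CPM to 19.1 and 11 CPM (6.42 ± 0.89), whereas the broadly expressed pump Atp2a2 fell from 562 and 612 CPM to 311 and 315 CPM (-0.91 ± 0.13). In deposited TPM the second pump still stood higher in DM, at 142 and 133, against 11.9 and 6.26 for the first. Triadin (Trdn), which holds the release channel to its partners, went from 1.57 and 0.0903 CPM to 170 and 108 CPM (7.35 ± 1.99), a call lost without GM replicate 2 (adjusted p 0.0847). The calcium channel subunit Cacnb1 rose by 1.39 ± 0.29.

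The acetylcholine receptor gathers under the nerve terminal, and its genes are also active in myotubes before innervation. Of 11 tested genes of this list 8 were higher and none lower (median 1.85), with 5 higher without GM replicate 2 or without DM replicate 2. With all 4 libraries 72.7% of the list was called, all of it higher, where 20.5% of all genes were higher. The fetal gamma subunit Chrng was at 0.792 and 0.0542 CPM in GM and 32.8 and 50.9 CPM in DM. Its DM libraries were far above both GM libraries, which themselves differed (6.58 ± 1.31, adjusted p 0.00241). The delta subunit Chrnd rose by 3.40 ± 0.86, from 8.79 and 0.921 CPM to 38.8 and 64.4 CPM, and by 5.81 without GM replicate 1. Rapsn, which clusters the receptor, went from 41.7 and 45.9 CPM to 146 and 172 CPM, and the close replicates gave a change of 1.86 ± 0.17 (adjusted p 2.54e-05). The agrin receptor Lrp4 rose by 3.35 ± 0.68 and agrin itself (Agrn) by 1.36 ± 0.17. The beta subunit Chrnb1 overlapped between media, at 44.9 and 30.9 CPM in GM and 30.0 and 41.9 CPM in DM (-0.08 ± 0.25).

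The dystrophin complex links the cytoskeleton to laminin. It had 6 of 18 tested genes higher and none lower (median 1.07), and limma on log2(TPM + 1) called 13. The 33.3% called in edgeR were all rises, where 39.8% of all genes were called and 20.5% were higher. The muscle protease Capn3, listed here because its loss also causes limb-girdle dystrophy, rose by 2.54 ± 0.19 and alpha-sarcoglycan (Sgca) by 2.21 ± 0.46. Dystroglycan (Dag1) went from 279 and 254 CPM to 589 and 577 CPM (1.13 ± 0.17). Itga7, the laminin-binding integrin subunit of muscle, was at 161 and 77.8 CPM and then 224 and 255 CPM and did not pass (adjusted p 0.1).

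Fusion of myoblasts requires myomaker and myomixer. Myomaker (Mymk) was at 0.0950 and 0.0903 CPM in GM and at 6.71 and 4.76 CPM in DM (5.92 ± 0.74, adjusted p 0.000198). Myomixer (Mymx) was at 0.0792 and 0 CPM and then 2.06 and 1.64 CPM (5.40 ± 0.89). Both genes were near 0 in GM and present in both DM libraries. The membrane-repair protein dysferlin (Dysf) rose by 2.08 ± 0.25 and Elmo1, an activator of Rac signalling, by 3.02 ± 0.83. Without GM replicate 1 the changes were 9.86 for Mymx, then with no GM count, and 6.11 for Elmo1. Over the list, 7 of 20 genes were higher and 2 lower (median 0.21), a share of 45% called against 39.8% of all genes. Both lower genes lost their call with single libraries left out: the Rac1 GTPase (-0.37 ± 0.12) without any 1 of the 4 (adjusted p 0.0641 to 0.135) and N-cadherin, Cdh2 (-0.53 ± 0.13), without DM replicate 1 (0.0829) or GM replicate 2 (0.0800). Beta-1 integrin (Itgb1) did not pass, at 909.8 to 1103 CPM in the 4 libraries.

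Metabolic genes moved in both directions. Among creatine kinase, glycogen and glycolytic genes 6 of 22 were higher and 5 lower (median 0.40), and the lower count was 3 without DM replicate 1. With all 4 libraries 50% of that list was called, against 39.8% of all genes (20.5% higher and 19.2% lower). Muscle creatine kinase Ckm was at 0.0634 and 0.0542 CPM in GM and 3.79 and 1.22 CPM in DM (5.35 ± 0.96). The muscle phosphofructokinase Pfkm rose from 60.8 and 59.5 CPM to 94.6 and 109 CPM (0.76 ± 0.13). Of the falls, pyruvate kinase Pkm went from 3804 and 4338 CPM to 1996 and 2505 CPM (-0.86 ± 0.19), and Eno3, the muscle enolase, from 745 and 755 CPM to 282 and 322 CPM (-1.31 ± 0.16). In each of these 4 genes the media did not overlap, as was so for 72.7% of all genes tested. Among respiratory and mitochondrial genes 2 of 25 were higher and 10 lower (median -0.15), against 20.5% and 19.2% of all genes. Among the lower ones cytochrome c (Cycs) changed by -1.38 ± 0.23, the ATP synthase subunits Atp5b and Atp5a1 by -0.61 ± 0.13 and -0.48 ± 0.11, and Cox5a by -0.70 ± 0.15. The muscle isoform Cox6a2 rose by 4.22 ± 0.83, from 0 and 0.0542 CPM to 0.451 and 0.565 CPM, and the GM level rests on replicate 2 alone (8.03 without it). The number lower was 6 without GM replicate 2 and 6 without DM replicate 1.

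The cell cycle lists moved together more than any other. All but 1 of 33 S phase genes were lower in DM (median -1.71), against 19.2% of all genes, and 30 or 31 of them were called with any 1 library left out. Ribonucleotide reductase subunit Rrm2 was at 518 and 542 CPM in GM and 85.7 and 96.5 CPM in DM. The media were far apart and the replicates close (-2.54 ± 0.14, adjusted p 6.38e-06). The replicative helicase subunits Mcm4, Mcm6 and Mcm7 fell by 1.65 ± 0.13, 1.71 ± 0.13 and 1.58 ± 0.17 on the log2 scale, and the sliding clamp Pcna by 1.39 ± 0.15. The exception, the transcription factor E2f2, overlapped between the media (32 and 6.63 CPM, then 11.1 and 16.7 CPM) and changed by -0.48 ± 0.77, or 1.07 without GM replicate 1.

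All 32 mitosis genes were lower in DM, with a median of -1.66, and 30 to 32 were called with any 1 library left out. Over all genes tested 19.2% were lower. Cyclin B1 (Ccnb1) went from 253 and 225 CPM to 47.6 and 56.0 CPM (-2.20 ± 0.21). The proliferation antigen gene Mki67 was at 553 and 430.2 CPM and then 176 and 195 CPM (-1.41 ± 0.22). Both genes remained well above 0 in DM: the DM means of Mki67 and Ccnb1 were 186 and 51.8 CPM. The decatenating enzyme Top2a fell by 1.66 ± 0.28 and the spindle factor Tpx2 by 1.66 ± 0.16.

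Regulators of cycle exit were mixed, with 6 of 19 tested genes higher and 5 lower (median -0.05), against 20.5% and 19.2% of all genes. Cyclin D1 (Ccnd1) went from 433 and 504 CPM to 120.2 and 187 CPM (-1.61 ± 0.25), and its kinase partner Cdk6 fell by 1.00 ± 0.23, while Cdk4 did not pass (-0.25 ± 0.15). The pocket protein gene Rbl2 rose by 0.88 ± 0.18. The CDK inhibitor p21 (Cdkn1a) was at 128 and 163 CPM in GM and 184 and 268 CPM in DM. Its DM libraries were the higher ones, yet the change of 0.63 ± 0.20 was lost without DM replicate 2 (0.33, adjusted p 0.285) or GM replicate 1 (0.187). Cdkn1c had 0 counts in all 4 libraries. Gadd45a and Ccng2, stress- and arrest-linked genes chosen after their values were seen, rose by 2.72 ± 0.43 and 2.50 ± 0.47. The lower count of this list was 3 without DM replicate 1.

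Inhibitors of myogenic factors and Notch genes showed 5 of 21 higher and 3 lower (median 0.26), and the share called, 38.1%, was near the 39.8% of all genes. Id3 was at 32.8 and 122 CPM in GM and 60.6 and 63.4 CPM in DM, and Id1 at 29.9 and 133 CPM and then 26.7 and 30.5 CPM. For Id3 the GM replicates lay on either side of DM, and neither gene passed (-0.32 ± 0.90 and -1.51 ± 1.19). Id2 fell by 2.27 ± 0.79, lost without GM replicate 2 (adjusted p 0.18), DM replicate 1 (0.148) or DM replicate 2 (0.15). Hes6, a Hes-family factor that promotes myogenesis, went from 18.3 and 19 CPM to 54.4 and 68.5 CPM (1.72 ± 0.19), and the receptor Notch2 from 164 and 168 CPM to 266 and 275 CPM (0.70 ± 0.16). Those 2 genes had close replicates and did not overlap between media, and the latter was so for 72.7% of all genes tested. The number of genes called lower was 0 without GM replicate 2 or DM replicate 1 and 1 without DM replicate 2, and the number higher was 3 without GM replicate 2 or DM replicate 1.

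Of 13 tested satellite and reserve cell markers 3 were higher and none lower (median 1.01), and the share called, 23.1%, was below that of all genes and near the 20.5% of all genes higher. Hepatocyte growth factor (Hgf), which activates satellite cells, went from 12.2 and 6.12 CPM to 75.6 and 72.9 CPM (3.01 ± 0.58). The chemokine receptor Cxcr4 rose by 1.67 ± 0.40, lost without GM replicate 1 (adjusted p 0.0608), and the receptor Fgfr4 by 3.03 ± 0.70 from under 0.1 CPM. Pax7, the defining satellite cell factor, was at 0 in both GM libraries and at 0.118 and 0.0383 CPM in DM.

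Insulin-like growth factor 2 is made by differentiating myoblasts and acts back on them. Igf2 was at 1.25 and 0.0722 CPM in GM and at 149 and 83.2 CPM in DM. DM was far above GM in both replicates, with the GM libraries wide apart (7.42 ± 1.36, adjusted p 0.00143). The receptor genes moved less and with close replicates: Igf1r went from 47.6 and 56.7 CPM to 142 and 152 CPM (1.5 ± 0.19), while Igf2r rose by 1.04 ± 0.18, Insr by 0.86 ± 0.16 and the adaptor Irs1 by 0.81 ± 0.17. The imprinted zinc finger gene Peg3 went from 57.9 and 33.0 CPM to 472 and 470.3 CPM (3.37 ± 0.43). The binding protein Igfbp5 was at 769 and 768 CPM in DM but at 64.1 and 3.95 CPM in GM, and just missed the threshold (4.5 ± 1.69, adjusted p 0.0545). H19, the noncoding neighbour of Igf2, missed the threshold, at 2420.3 and 2973 CPM in DM (2.76 ± 1.78). In all, 7 of 22 tested genes of this list were higher and 1 lower (median 0.82), a share of 36.4% called against 39.8% of all genes, and none was lower without GM replicate 2 or DM replicate 1.

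Matrix genes were among those with the highest levels. Of 31 tested interstitial matrix genes 13 were higher in DM and 2 lower (median 1.19), and the number higher was 6 without GM replicate 2 and 8 without DM replicate 1. With all 4 libraries 48.4% of the list was called, against 39.8% of all genes (20.5% higher and 19.2% lower). Fibronectin (Fn1) was at 2449 and 2173 CPM in GM and 13538 and 10428 CPM in DM. The media were well apart (2.37 ± 0.28, adjusted p 9.75e-05). Decorin (Dcn), a collagen-binding proteoglycan, went from 2.93 and 0.415 CPM to 567 and 214 CPM (7.85 ± 1.51), and biglycan (Bgn) from 1455 and 1902 CPM to 4182 and 3484 CPM (1.19 ± 0.20). The membrane protease Mmp14 rose by 1.33 ± 0.27 and fibrillin (Fbn1) by 1.32 ± 0.24. Collagen III (Col3a1) was at 3473 and 1282 CPM and then 11119 and 9815 CPM, and its call (2.14 ± 0.74) was lost without GM replicate 2 (adjusted p 0.211), DM replicate 1 (0.114) or DM replicate 2 (0.0849). Both lower genes also lost their call with a library left out: tenascin C (Tnc, -1.10 ± 0.35) without GM replicate 1 (-0.63, adjusted p 0.234) or DM replicate 2 (0.185), and Thbs2 without any 1 of the 4 (0.0588 to 0.134).

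Of 19 basement membrane and integrin genes 5 were higher and 3 lower (median 0.12), a share of 42.1% called, near the 39.8% of all genes. Integrin beta-5 (Itgb5) went from 135 and 136 CPM to 389 and 434 CPM (1.60 ± 0.34), and laminin gamma-1 (Lamc1) fell from 349 and 438 CPM to 248 and 254 CPM (-0.65 ± 0.14). Neither gene overlapped between media, as was so for 72.7% of all genes tested. The number higher was 3 without DM replicate 1 or DM replicate 2, and the number lower 1 without DM replicate 1 or GM replicate 2. In the list of TGF-beta, activin and smooth muscle genes 3 of 23 were higher and 6 lower (median -0.51), a share of 39.1% called, again near that of all genes. The ligands Tgfb3 and Tgfb1 rose by 1.84 ± 0.24 and 1.09 ± 0.21, and the activin receptor Acvr2b by 1.70 ± 0.29. The actin-binding protein Tagln2 fell from 472 and 523 CPM to 113 and 133 CPM (-2.01 ± 0.16). Smooth muscle Tagln was at 33.6 and 52.6 CPM and then 18.8 and 11.1 CPM (-1.53 ± 0.38), lost without GM replicate 2 (adjusted p 0.0633) or DM replicate 2 (0.0764). The lower count was 2 without GM replicate 2 and 3 without DM replicate 1.

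Markers of other cell types were measured beside these genes, and their part in the results was not tested. Of 10 fibroblast-like markers 7 were tested, 5 of them higher, against 20.5% of all genes, and none lower. Their summed level was 487 to 578 CPM in GM and 998 to 1394 CPM in DM. They include Dcn, already given, Pdgfra (2.01 and 2.93 CPM, then 11.5 and 7.88 CPM) and Pi16 (0.158 and 0.0722 CPM, then 9.17 and 6.94 CPM), while Thy1 and Tcf21 had 0 counts in all 4 libraries, and 3 were called without GM replicate 2. The 10 osteogenic and chondrogenic markers summed to 1414 to 2925 CPM in GM and 4825 to 5860.3 CPM in DM, nearly all of it osteopontin, Spp1 (2828 and 1283 CPM, then 5754 and 4728 CPM, 1.35 ± 0.31). The Spp1 change was 2.03 without GM replicate 1 and 0.88 without GM replicate 2. Of the 4 tested markers of this list 1 was higher, Spp1, and 1 lower. The 10 adipogenic markers summed to 78.3 and 179 CPM in GM and 68.9 and 93.3 CPM in DM. Of the 6 tested, 2 were higher and 1 lower, against 20.5% and 19.2% of all genes. The lower one, Pparg, fell by 1.35 ± 0.24. The 10 epithelial and neural markers summed to 32.8 and 27.6 CPM in GM and 9.80 and 10.6 CPM in DM, with Epcam, Rbfox3 and Sox10 at 0 counts. Of the 6 tested in that list, 1 was higher and 2 lower. The 10 endothelial markers summed to at most 0.698 CPM, with Kdr, Tie1, Emcn and Cldn5 at 0 counts, and of the 4 tested 1 was higher and none lower. The 10 leukocyte markers summed to at most 5.63 CPM, mostly Cd53, with Adgre1 and Cd3e at 0 counts. Where edgeR called 39.8% of all genes, it called none of the 5 tested (0 at an unadjusted p under 0.05, 0 by DESeq2 and 1 by limma on TPM).

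Stress, sterol and atrophy genes were set beside the muscle lists. Of 24 genes of the integrated stress response and endoplasmic reticulum chaperones 13 were lower and 2 higher (median -0.70), against 19.2% and 20.5% of all genes. The stress factor Atf4 went from 412 and 312 CPM to 175 and 194 CPM (-0.97 ± 0.17), the lectin chaperone Calr fell by 1.06 ± 0.18 and the disulfide isomerase Pdia6 by 0.79 ± 0.13. Phgdh and Shmt2, enzymes of serine and glycine synthesis chosen after their values were seen, fell by 2.39 ± 0.29 and 2.01 ± 0.27. Of the 2 higher genes, Ddit4 was no longer called when any 1 of the 4 was left out (adjusted p 0.0629 to 0.202) and Dnajb9 without GM replicate 2 (0.186) or DM replicate 1 (0.221). Where edgeR called 39.8% of all genes, it called 0 of 22 sterol synthesis genes. Of these 22, 1 was at an unadjusted p under 0.05, and 0 were called by DESeq2 and 1 by limma on TPM. The replicates moved in opposite directions, with a median change of -0.53 within replicate 1 and 0.64 within replicate 2. Replicate 1 was above replicate 2 for 22 of the 22 genes in GM and for 0 in DM. The summed level was 5258 and 3018 CPM in GM and 3944 and 5149 CPM in DM.

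Of 20 FoxO, atrophy and autophagy genes 14 were higher and 1 lower (median 0.92), and 9 were higher without GM replicate 1. The 1 lower gene was no longer called without GM replicate 1, DM replicate 1 or DM replicate 2. With all 4 libraries 75% of the list was called, against 39.8% of all genes (20.5% higher and 19.2% lower). The autophagosome protein gene Map1lc3a went from 28.9 and 24.5 CPM to 165 and 174 CPM (2.67 ± 0.42), and Map1lc3b from 69.1 and 84.7 CPM to 201 and 197 CPM (1.37 ± 0.17). Their media did not overlap, as was so for 72.7% of all genes tested, and the DM replicates were close. Sesn1, an inhibitor of the growth kinase mTORC1, rose by 1.76 ± 0.28 and Gabarapl1 by 0.99 ± 0.12. The ubiquitin ligases of muscle atrophy, Trim63 and Fbxo32, named after their values were seen, rose by 4.27 ± 0.44 and 2.39 ± 0.32.

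Of 36 interferon response genes, induced by cytokine signalling in antiviral defence, 17 rose in WT-labelled MUNC cells, none fell and 19 did not pass. The share called, all of it rises, was 47.2%, where 39.8% of all genes were called and 20.5% were higher. The median was 1.51 (1.39 with genes at 0 in GM set to the floor, and 0.61 on log2(TPM + 1) with limma), and 10 were higher without GM replicate 2. Isg15, a ubiquitin-like modifier, was at 0.538 and 0.271 CPM in GM and at 4.91 and 5.92 CPM in DM (3.72 ± 0.47, adjusted p 0.000137). Ifit3, an antiviral protein of the interferon-induced tetratricopeptide family, went from 0.966 and 0.722 CPM to 11.2 and 12.2 CPM (3.79 ± 0.37). Both genes were low in GM and higher, though still modest, in both DM libraries. Irf9, the DNA-binding subunit of the interferon-activated factor, rose by 1.12 ± 0.18 and the RNA sensor Dhx58 by 1.26 ± 0.20.

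The promoters of Isg15 (chr4:156200769-156201068, minus strand) and Ifit3 (chr19:34583279-34583578, plus strand) are shown on the same RefSeq windows because the interferon-activated factor binds a repeated GAAA element. Capitals mark matches, on either strand, to GAAA followed by 2 bases of any kind and GAAA again, a pattern that resembles the interferon-stimulated response element.
Isg15: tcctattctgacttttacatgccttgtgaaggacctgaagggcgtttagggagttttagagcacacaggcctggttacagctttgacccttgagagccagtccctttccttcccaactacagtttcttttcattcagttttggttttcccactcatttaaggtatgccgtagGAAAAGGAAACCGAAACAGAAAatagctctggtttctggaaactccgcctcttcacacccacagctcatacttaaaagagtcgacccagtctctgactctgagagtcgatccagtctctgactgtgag
Ifit3: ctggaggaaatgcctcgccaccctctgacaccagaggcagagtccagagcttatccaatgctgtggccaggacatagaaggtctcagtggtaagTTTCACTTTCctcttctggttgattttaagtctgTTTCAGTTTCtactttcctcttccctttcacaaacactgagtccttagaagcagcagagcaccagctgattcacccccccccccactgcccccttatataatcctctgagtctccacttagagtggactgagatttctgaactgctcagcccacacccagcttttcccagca
The Isg15 window held 3 overlapping matches, printed as 1 run, and the Ifit3 window 2. At least 1 match was found in 3.49% of all promoters, in 3.11% of those of genes tested, in 3.59% of those of genes higher in DM, and in 15 of the 27 interferon list genes with a promoter (55.6%). None of the 29 promoters of rising muscle genes held it.

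In WT-labelled EV cells 35 of the 36 interferon genes were higher in DM and none lower, against 19.2% of all genes higher, with a median of 7.17. In MYOD-/- labelled MUNC cells, where 44.8% of all genes changed, all 36 were higher, against 24.4% of all genes, with a median of 6.28. Isg15 was at 11.6 and 5.36 CPM in GM and 633 and 774 CPM in DM of the EV cells. In the MYOD-/- labelled MUNC cells it was at 0.916 and 0.730 CPM and then 227 and 274 CPM. Each of those 4 DM libraries lay more than an order of magnitude above the WT-labelled MUNC DM libraries.

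The differences between these responses were tested as contrasts of the 2 changes, and both contrasts use the same 4 WT-labelled MUNC libraries. Against EV cells, the response of 25 of the 36 genes was lower and of none higher, where 2.09% of all genes were lower. Only 30 of the 36 passed the filter on low counts in the 4 WT-labelled MUNC libraries alone, and 23 of these 30 were lower. The other 6 were tested through the libraries in which they are high. The difference was -5.68 ± 0.28 for Dhx58 (adjusted p 5.49e-06), -5.12 ± 0.49 for Ifit3 and -3.09 ± 0.25 for Irf9. Ifit1 differed little there (-0.47 ± 0.72, adjusted p 0.83), with changes of 5.06 ± 0.58 in WT-labelled MUNC cells and 5.52 ± 0.56 in EV cells. Without WT-labelled MUNC GM replicate 1 the count was 14. Against MYOD-/- labelled MUNC cells, 26 of the 36 were lower and none higher, where 1.24% of all genes were lower, and of the same 30 genes 25 were lower. The difference was -4.91 ± 0.28 for Dhx58 (adjusted p 2.92e-05), -6.23 ± 0.51 for Ifit3 and -3.13 ± 0.25 for Irf9. That count was 13 without WT-labelled MUNC GM replicate 1, 12 without DM replicate 1, 11 without DM replicate 2, and 17 and 14 without MYOD-/- labelled MUNC GM replicate 2 and DM replicate 2.

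**Figure D3:**
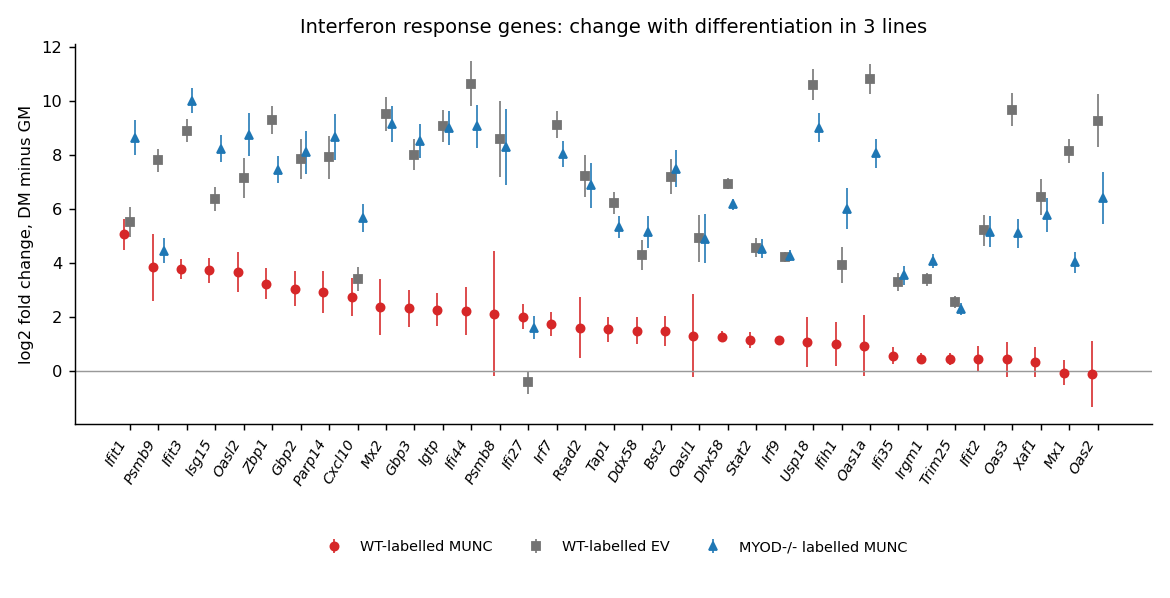
Log2 fold change (DM minus GM) ± SE of 35 of the 36 interferon response genes in 3 lines, ordered by the change in WT-labelled MUNC cells. The WT-labelled MUNC points (median of all 36 genes 1.51) lie below most points of the WT-labelled EV cells (7.17) and of the MYOD-/- labelled MUNC cells (6.28), and for Ifi27 alone it lies above both.

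Across all genes, the response of WT-labelled MUNC cells differed from that of EV cells in 499 genes (3.33%), 186 higher and 313 lower. The count ranged from 198 to 496 with 1 library left out: 198 and 308 without MUNC GM replicate 1 and 2, 205 and 268 without MUNC DM replicate 1 and 2, 327 and 212 without EV GM replicate 1 and 2, and 251 without EV DM replicate 2. Some contractile and calcium genes were among those that rose more in the MUNC cells. The response was higher for 3 of 15 thick filament, 2 of 19 thin filament and 2 of 18 excitation-contraction genes, against 1.24% of all genes. It was higher for 0 of 19 Z-disc genes, and lower for 1 excitation-contraction gene, against 2.09% of all genes. Most genes of these lists did not pass this test. Mylpf went from 0.938 and 0.801 CPM to 1.83 and 1.45 CPM in EV cells, a change of 0.92 ± 0.34 that did not pass, against 4.25 in MUNC cells (difference 3.33 ± 0.48, adjusted p 0.0036). Ryr1 changed by 2.19 ± 0.37 in EV cells (difference 3.53 ± 0.59, or 5.31 without MUNC GM replicate 1). Cxcr4 fell in EV cells, from 0.501 and 1.05 CPM to 0.164 and 0.217 CPM, while it was higher in DM in MUNC cells (difference 3.68 ± 0.61, adjusted p 0.00835). Glutamine synthetase (Glul) went from 29.5 and 30.3 CPM to 134 and 136 CPM in MUNC cells and from 41.6 and 40.9 CPM to 44.0 and 37.5 CPM in EV cells (difference 2.19 ± 0.24).

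Agrin rose in both lines and less in MUNC cells: from 18.3 and 20 CPM to 193 and 174 CPM in EV cells, against 21.3 and 25.7 CPM to 55.6 and 65.0 CPM (difference -1.90 ± 0.24, adjusted p 0.00149). Neither cell cycle list held a gene whose response differed from that of EV cells in edgeR. Over all genes 3.33% differed, so a count of 0 says little about lists of 33 and 32 genes. The median differences were 0.01 (S phase) and 0.25 (mitosis). For mitosis 30 of the 32 differences were positive, a smaller fall in MUNC cells. For Myog the difference was 2 ± 1.59 (adjusted p 0.608), for Mymk -0.65 ± 1.18, and for Chrng 0.52 ± 1.74. These errors are wide, and a difference that missed the threshold does not show that the lines responded alike.

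Against MYOD-/- labelled MUNC cells the response differed in 206 genes (1.38%), 21 higher and 185 lower. MUNC itself was lower in those cells, as given above, and the part of its level in these differences was not tested. With 1 library left out the count was 59 to 279: 97 and 112 without WT-labelled MUNC GM replicate 1 and 2, 62 and 59 without DM replicate 1 and 2, 118 without MYOD-/- labelled MUNC GM replicate 2, and 127 and 84 without its DM replicate 1 and 2. Some muscle genes differed in the lower direction: 4 of 19 thin filament, 2 of 15 thick filament and 2 of 19 Z-disc genes. None of these lists held a gene higher, where 1.24% of all genes were lower and 0.14% higher. Of 18 excitation-contraction genes 0 passed in either direction, and most genes of these lists did not pass this test. The atrial and embryonic light chain Myl4, chosen after its values were seen like Pygm, was at 1.19 and 1.05 CPM in GM and 1.73 and 1.28 CPM in DM of WT-labelled MUNC cells. It went from 2.12 and 1.75 CPM to 23.5 and 15.1 CPM in MYOD-/- labelled MUNC cells, and only the latter change passed the test (difference -2.89 ± 0.38, adjusted p 0.00422). Muscle glycogen phosphorylase (Pygm) changed by 4.14 ± 0.33 there and by 0.98 ± 0.32 in WT-labelled MUNC cells (difference -3.16 ± 0.44). The smaller of these changes was no longer called without GM replicate 1 (adjusted p 0.144), GM replicate 2 (0.0751) or DM replicate 1 (0.292). Agrn, at 21.5 and 20.4 CPM and then 246 and 218 CPM there, also differed (-2.11 ± 0.24). Myh3 reached 314 and 260.1 CPM in DM of the MYOD-/- labelled MUNC cells, and its difference did not pass (-2.79 ± 1.22, adjusted p 0.418).

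**Figure D4:**
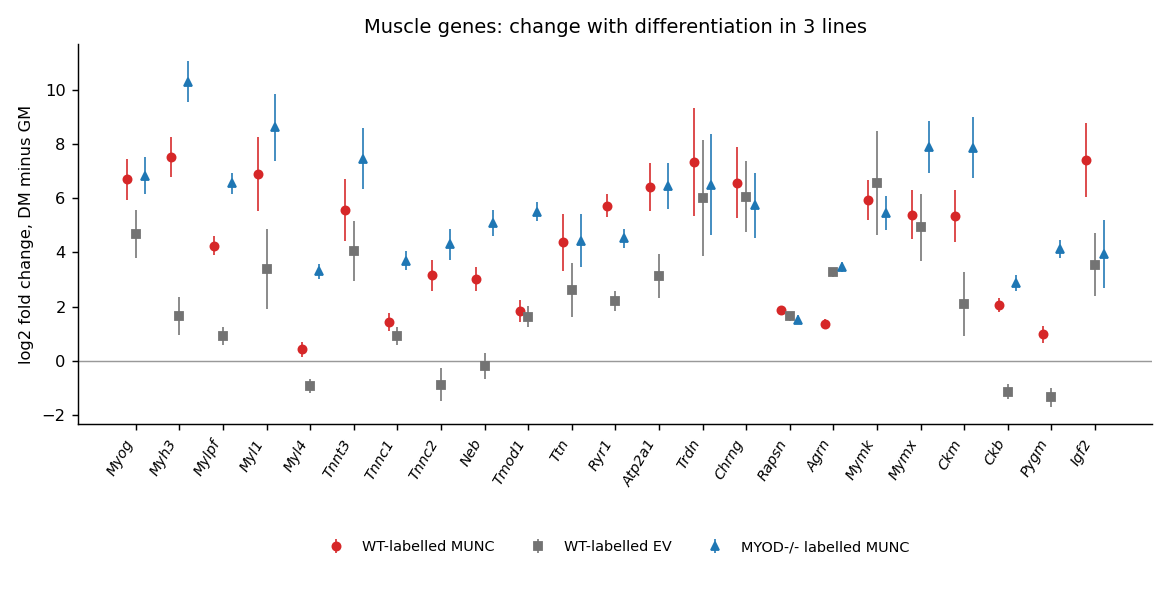
Log2 fold change (DM minus GM) ± SE of 23 muscle genes in the same 3 lines. For Mylpf the WT-labelled MUNC point (4.25) lies between the EV point (0.92) and the MYOD-/- labelled MUNC point (6.55), and for Mymk the 3 points lie close together, at 5.92, 6.56 and 5.47.

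The largest changes among genes with a mean of at least 5 CPM and no overlap between media lay partly outside the lists. Lix1, of unsettled function in muscle, went from 0.459 and 0.181 CPM to 53.8 and 52.2 CPM (7.34 ± 0.66, adjusted p 2.34e-05). The matrix proteoglycan Prelp went from 0.554 and 0.0542 CPM to 38.9 and 17.5 CPM (6.49 ± 1.17), and Avil, an actin-severing protein of the gelsolin family, from 0.285 and 0.217 CPM to 7.42 and 33.4 CPM (6.33 ± 1.28). The DM replicates were close to each other for Lix1 and farther apart for Prelp and Avil. Among falls, the placental-hormone family gene Prl2c3 went from 814 and 2029.6 CPM to 10.4 and 26.4 CPM (-6.27 ± 1.29), and reads of its near-identical family member Prl2c2 could have been divided between the copies. The neurofilament gene Nefl fell by 4.84 ± 0.79, the Notch-ligand-like gene Dlk2 by 4.83 ± 1.01, and the integrin subunit gene Itgb7 from 113 and 204 CPM to 7.52 and 13.7 CPM (-3.90 ± 0.81). In EV cells Itgb7 changed by 0.18 ± 0.72 and Prl2c3 by -0.06 ± 1.04, and neither difference from the MUNC cells passed (-4.08 ± 1.05, adjusted p 0.0621, and -6.20 ± 1.58, adjusted p 0.058).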

How the data were processed

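Poly(A) RNA of C2C12 cells was sequenced in 16 libraries, 2 in each of 8 groups taken from the labels. Per the submitters' processing notes, bcl2fastq, kallisto and the mm10 build were used, and neither versions nor kallisto's strand setting are given, so reads of a gene and an antisense partner cannot be told apart. The authors deposited 1 table per library, which per the file headers holds the estimated counts and TPM of 35818 transcripts. Estimated counts were summed per gene (RefSeq for 35492 transcripts, GENCODE for 188, with 138 unnamed ones left out, holding 0.28% to 0.941% of the counts), giving 24497 genes, and rounded. Library totals were 35.8 M to 108 M.

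Counts were fitted with edgeR 4.0.16 (quasi-likelihood F test, TMM, filterByExpr, 1 mean per group over all 16 libraries), with Benjamini-Hochberg adjustment over 14972 genes and a threshold of 0.05. SEs are the log2 change divided by the root of F. Differences between responses are contrasts of 2 changes in the same model. A gene with 0 counts in GM has its fold set against 3 counts over the GM libraries, a floor for counting error only. In a simulation of DM minus GM in WT-labelled MUNC cells, 200 of 14972 genes were changed, fewer than were called in the data. There 27.5% of 2-fold and 99.5% of 4-fold changes were recovered, and 1.79% and 7.44% of the calls were false. Every simulated gene had the same spread, unlike the data, and only genes with a mean of at least 5 CPM were changed. These shares therefore do not give the recovery for genes that spread more or lie lower.

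The members, gene lists and marker lists were chosen with earlier results of these data known. Genes were named by rule: a panel, the 10 largest changes each way at 5 CPM or more with no overlap, in each list the 6 called and 2 not called genes with the highest CPM and every called gene going against its list, the 6 largest differences each way, and markers at 5 CPM or more. Genes outside that rule are said to be chosen after their values were seen, or are given as values of their list. Alternatives were DESeq2 1.42.0 or its size factors, limma 3.58.1 on log2(TPM + 1), other filters, effective-length offsets, Zrsr1 left out, fewer libraries, each library left out and the replicate number as a block. Analysis used R 4.3.3 and Python 3.11.15. A few genes of the lists are counted but not reported here by name.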

Additional observations from a re-analysis of the deposited data

Results flagged for a closer look

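The change from GM to DM in WT-labelled MUNC cells differed from that of another line, by edgeR's test of the difference itself, in 499 genes against WT-labelled EV cells and in 206 genes against MYOD-/- labelled MUNC cells. Both sets of differences use the same 4 WT-labelled MUNC libraries. Differences are in log2 change, WT-labelled MUNC minus the other line, and those named are the largest each way and the panel genes that passed.

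Against EV cells the response was higher for the lubricating proteoglycan gene Prg4 (7.17), Lix1 (5.89), embryonic myosin Myh3 (5.87), Gpr153 (5.15), Ccnb1ip1 (4.02), the collagen-binding integrin subunit Itga10 (3.71) and Tagln (3.07). It was lower for the interferon-induced genes Oas1a (-9.89), Usp18 (-9.55), Oas2 (-9.40), Gm4951 (-9.30), Trim30d (-9.29), Oas3 (-9.26), Dhx58 (-5.68) and Isg15 (-2.65). Reads of Oas1a could have been divided with its close paralog Oas1g. Leaving out WT-labelled MUNC GM replicate 1 ended the calls of Oas1a (adjusted p 0.167), Usp18 (0.392), Oas2 (-2.93, adjusted p 1), Gm4951 (0.103), Trim30d (-5.13, adjusted p 1) and Tagln (0.0585). Oas1a was also lost without MUNC GM replicate 2 (adjusted p 0.137), Trim30d without MUNC DM replicate 1 (0.0528), MUNC DM replicate 2 (0.0556) or EV GM replicate 2 (0.065), and Tagln without MUNC DM replicate 1 (0.0524) or EV DM replicate 2 (0.0605). Gpr153 was no longer called without EV GM replicate 1 (adjusted p 0.399). Myh3 lost its call without either MUNC GM library, either EV GM library or EV DM replicate 2 (adjusted p 0.0523 to 0.114), and Isg15 without any of the 8 libraries but MUNC GM replicate 2 and EV GM replicate 1 (0.0508 to 0.299). The remaining differences of this group were called with each library left out in turn.

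Against MYOD-/- labelled MUNC cells the response was higher for Prg4 (3.74), Gramd1b (1.74), Churc1 (1.43), Shc2 (1.36), glutamine synthetase Glul (1.29) and Pgap1 (1.19). It was lower for Usp18 (-7.96), Ifi44 (-6.85), Igtp (-6.74), Phf11d (-6.70), Ifit3b (-6.41), Tgtp1 (-6.30), Dhx58 (-4.91), Isg15 (-4.52) and Tagln (-2.93). Reads of Ifit3b could have been divided with Ifit3. Of all 15, Dhx58 was called with each library left out in turn, and each of the others lost its call without at least 1 library. Without WT-labelled MUNC GM replicate 1 the adjusted p was 0.654 for Usp18, 0.224 for Igtp, 0.0953 for Phf11d, 0.194 for Ifit3b, 0.0542 for Tgtp1 and 0.0855 for Isg15. Usp18 was also lost without MYOD-/- labelled MUNC DM replicate 2 (0.0579). Shc2 lost its call without WT-labelled MUNC GM replicate 1 (0.0541) or DM replicate 2 (0.0662), Prg4 without GM replicate 1 or either DM library of those cells (0.06 to 0.0686), and Tagln without GM replicate 2 or either DM library of those cells or MYOD-/- labelled MUNC DM replicate 1 (0.0517 to 0.115). Churc1 was lost without any of the 8 libraries (0.0518 to 0.142), Ifi44 without any but MYOD-/- labelled MUNC DM replicate 1 (0.0602 to 0.597), Pgap1 without any but its GM replicate 2 (0.0525 to 0.102), Glul without any but its GM replicate 1 and DM replicate 1 (0.0671 to 0.108), and Gramd1b without any but its GM replicate 1 and WT-labelled MUNC GM replicate 1 (0.0906 to 0.18).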

How the results depend on the processing

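The count of genes changed between GM and DM stayed within 1.5 times of 5956 under every alternative run (4015 with DM replicate 1 left out to 7112 with the replicate block), and of 140 genes named with that change, 125 to 140 kept direction and side of the threshold in each. Against EV cells the 499 differences became 1155 with DESeq2, 944 with limma on log2(TPM + 1), 1033 with the replicate block and 198 to 496 with a library left out. Against MYOD-/- labelled MUNC cells the 206 became 502, 563, 388 and 59 to 279, and 81 with only the libraries compared. The cause was not tested. Same-numbered GM and DM libraries deviated together with correlations of 0.265 (WT-labelled MUNC), 0.26 (WT-labelled EV) and 0.0891 (MYOD-/- labelled MUNC), so these correlations do not show that the replicate numbers pair the samples. The numbers did separate all libraries by their Zrsr1 share (0.00792% to 0.0344% in the 8 of replicate 1, 1.49% to 13% in the 8 of replicate 2), and what they stand for is not labelled. On the first principal component (43.4% of the variance), where DM lay above GM, replicate 1 also lay above replicate 2 in every group. In WT-labelled MUNC cells the values were -65.19 and -90.56 in GM and 36.49 and 24.2 in DM. The main model did not include the replicate number. The direction turned for results that did not pass: Chrnb1 (0.22 and 0.13 without GM or DM replicate 1, 0.13 with limma), E2f2 (-1.21 to 1.07 with a library left out, highest without GM replicate 1, and 0.07 with limma), Id3 (-0.98 to 0.91, highest without GM replicate 2, and 0.16 with limma), Myf6 (-0.03 without GM replicate 2 to 1.23), MUNC (-0.01 without DM replicate 2 to 0.38), and the differences from EV cells of Chrng (-0.34 without MUNC GM replicate 2 and -0.84 without EV GM replicate 1, to 3.49) and Mymk (0.09 with DESeq2, 2.81 with limma, where it passed at an adjusted p of 0.00658). Low GM counts left wide errors on some large changes (SE 1.99 for Trdn and 1.36 for Igf2).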
